A study of Mus musculus with 6 samples.

Results

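The genes described here are those of the parathyroid hormone-related protein (PTHrP) axis of the growth plate. They are the ligand gene *Pthlh*, the receptor gene *Pth1r*, the G protein gene *Gnas*, the salt-inducible kinase genes *Sik1*, *Sik2* and *Sik3*, the coactivator genes *Crtc1*, *Crtc2* and *Crtc3*, and *Zfp521*. They were chosen by name, 10 genes out of the 23159 in the count table, and all 10 passed the filter on low counts. RNA came from growth plate chondrocytes of mice homozygous for 4 alleles, Col2a1-tTA (at *Peli2*), TRE-H2B-GFP (in *Col1a1*), Col2a1-creER and the R26R tdTomato reporter. Cells were taken at postnatal day 49 from mice that had received doxycycline from day 21 and tamoxifen on days 46 and 47. Without doxycycline tTA drives H2B-GFP, so that during doxycycline treatment dividing cells dilute the label and slow-cycling cells keep it. Cells of the distal femur and proximal tibia growth plates, negative for the leukocyte antigen CD45 in the sort, were separated into label-retaining chondrocytes (LRCs; tdTomato+ with high GFP) and other tdTomato+ cells with mid-low GFP (non-LRCs), of which about 10000 and 50000 were used per library. Both transgenes use *Col2a1* regulatory sequence, and cells of several littermates were pooled, so a library is a pool and not 1 animal. Each of 3 experiments gave 1 LRC and 1 non-LRC library (*n*=3 libraries per group).

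PTHrP is a secreted factor made by resting chondrocytes near the end of the growth plate. It acts on the PTH/PTHrP receptor of proliferating and prehypertrophic chondrocytes and delays their hypertrophic differentiation. The receptor couples to Gsα, the product of *Gnas*, which raises cyclic AMP (cAMP) and activates protein kinase A. Protein kinase A phosphorylates the salt-inducible kinases and thereby inhibits them, which leaves the CRTC coactivators of the transcription factor CREB, and class IIa histone deacetylases that restrain Mef2 factors, free to work in the nucleus. *Zfp521* encodes a zinc finger protein known as a target of PTHrP signaling in chondrocytes and an antagonist of Runx2.

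Total counts lay between 18943789 and 129559872 per library, with the smallest in the LRC library of experiment 2. Levels below are counts relative to the TMM-scaled library total, in the usual CPM unit, and levels compared between genes are divided by the length of the merged exons in kilobases (RPKM). Values of 3 libraries are listed by experiment, 1 to 3. A single count was worth 0.00856 CPM in LRCs of experiment 1 and 0.0478 CPM in those of experiment 2. The members had at least 121 counts in every library. The label was checked against defining markers. The 14 chondrocyte markers summed to 242700, 90880 and 171900 CPM in LRCs, against 260200, 148100 and 173800 CPM in non-LRCs. The sum was thus lower in LRCs in all 3 experiments. Its largest part was *Col2a1*, which took between 7.0% and 17.4% of all counts. Of the 14 markers, 10 were lower in LRCs in all 3 experiments, against 26.1% of all genes tested. The lowest chondrocyte sum and the lowest *Col2a1* share were both those of the LRC library of experiment 2. Leukocyte markers summed to at most 26.0 CPM and skeletal muscle markers to at most 15.1 CPM in any library. Erythroid markers summed to at most 9.26 CPM and endothelial markers to at most 5.45 CPM. The erythroid genes *Hba-a1* and *Hba-a2* and the endothelial genes *Cdh5*, *Kdr* and *Emcn* had 0 counts throughout. The study counted unambiguously mapped reads only, so the 0 counts of *Hba-a1* and *Hba-a2* do not by themselves show that their RNA was absent. The erythroid gene *Hbb-bs* had means of 2.11 (LRCs) and 6.62 CPM (non-LRCs), and the endothelial gene *Egfl7* had 2.30 and 1.32 CPM.

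The promoters of *Pth1r* and *Pthlh* are shown because these members differed between the groups, and that of *Sik3* because it held the most half-sites of the cAMP response element (CRE), through which CREB acts. The sequences are RefSeq's on GRCm38.p6, written 5′ to 3′ on the gene's strand, and were shortened where annotated exons fell in the window. Capitals mark the CRE half-site TGACG, read on either strand (CGTCA). The *Pth1r* window is chr9:110747146-110747395 (minus strand), before the most upstream of its 3 RefSeq starts, the *Pthlh* stretch is chr6:147264184-147264263 (minus strand), and the *Sik3* stretch is chr9:46012691-46012819 (plus strand).

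Pth1r: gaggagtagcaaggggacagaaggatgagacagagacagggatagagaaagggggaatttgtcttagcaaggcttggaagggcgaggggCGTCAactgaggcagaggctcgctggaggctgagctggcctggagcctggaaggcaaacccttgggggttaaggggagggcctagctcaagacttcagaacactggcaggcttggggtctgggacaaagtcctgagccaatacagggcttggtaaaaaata
Pthlh: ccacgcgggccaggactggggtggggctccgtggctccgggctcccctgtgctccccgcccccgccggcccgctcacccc
Sik3: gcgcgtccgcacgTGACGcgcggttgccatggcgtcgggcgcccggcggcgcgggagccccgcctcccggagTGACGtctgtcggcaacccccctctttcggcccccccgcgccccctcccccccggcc

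Promoter windows were read for 7 of the 10 members, at 12 starts. Member windows on chromosome 18, which holds *Zfp521*, were left out, whereas the shares over all genes did not leave out that chromosome. In the 250 bases before the start, a half-site was present at 1 start or more for 3 of the 7, *Pth1r*, *Gnas* and *Sik3*. *Sik3* had 3 of them, of which 2 lie in the stretch printed. For *Pth1r* the half-site was in the printed window only, and the windows of its other starts held 0. Which start these cells use was not tested. Of all 27025 genes with a window, 19.8% had a half-site at 1 start or more. The full palindrome TGACGTCA was in none of the member windows and in those of 1.77% of all genes. The letters GACCACCCA, bound by the Gli factors of Hedgehog signaling, were in none of the member windows and in those of 0.255% of all genes. These matches describe letters in a window and were not tested for binding.

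*Pthlh* and *Pth1r* moved in opposite directions between the groups, and no other member was called. Calls were made by edgeR's quasi-likelihood test with the experiment as a block over 13728 genes, and a gene was called where it passed 0.05 after Benjamini-Hochberg adjustment and changed at least 2-fold. By this rule 2 of the 10 members were called, 1 in each direction, and 1.21% of all genes tested were called, 0.874% higher and 0.335% lower in LRCs. The paper had reported both *Pthlh* and *Pth1r* as changed in these same libraries, and the members were chosen with earlier results known. The count of members called is therefore no independent finding about the axis. DESeq2 with the block called the same 2 members and 5.81% of the genes it tested, 3.11% higher and 2.71% lower. Log2 fold changes (log2FC) above 0 stand for higher levels in LRCs, and SE is the standard error. The median log2 fold change was 0.43 over the 10 members and -0.10 over all genes tested.

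**Figure D1:**
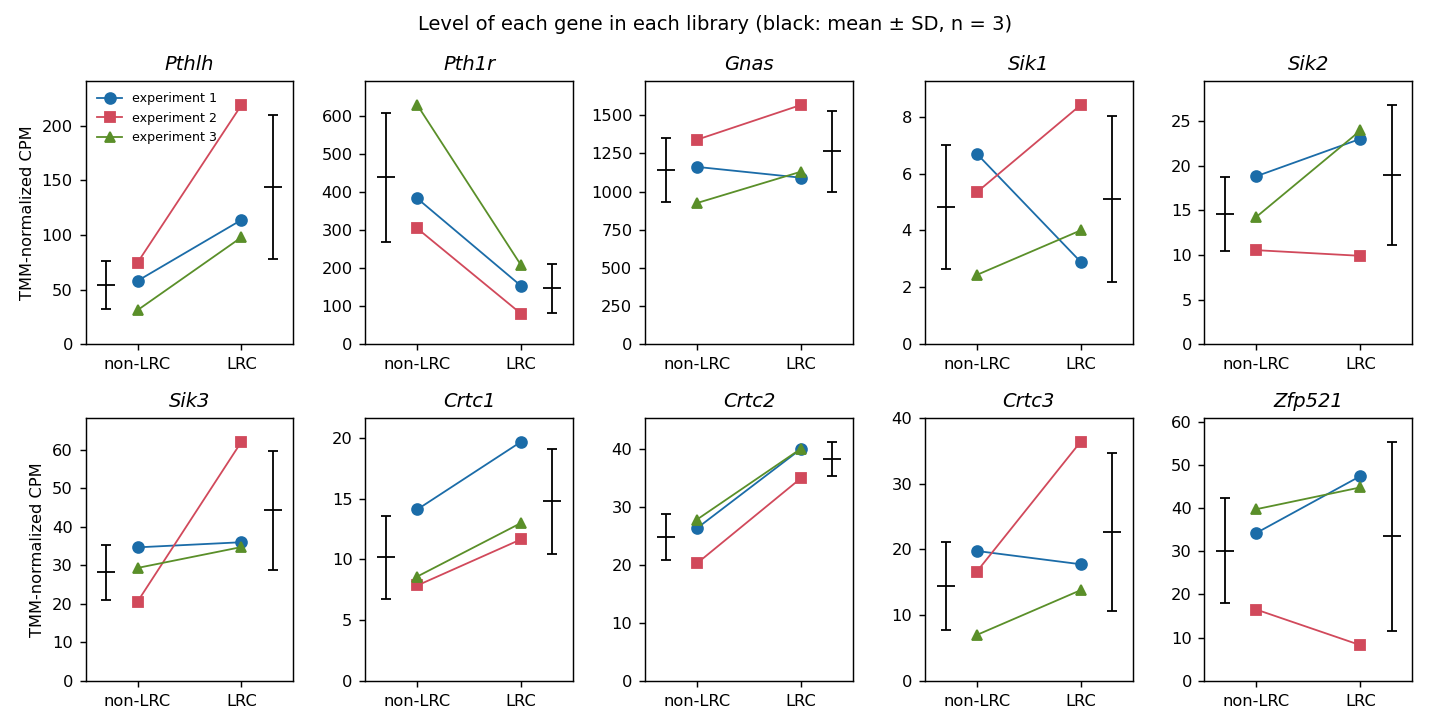
TMM-normalized CPM (y axis, from 0) of each gene in the non-LRC and LRC libraries, with lines joining the libraries of an experiment and black bars giving mean ± SD of 3 libraries. The *Pthlh* lines all rise and the *Pth1r* lines all fall from non-LRCs to LRCs without overlap of the groups, whereas those of *Sik1* and *Zfp521* run in both directions.

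*Pthlh* encodes PTHrP and lies on chromosome 6 (147252101 to 147264183, minus strand, GENCODE vM21 on GRCm38). It had 114, 219 and 97.9 CPM in LRCs of experiments 1, 2 and 3, against 58.0, 74.7 and 31.2 CPM in non-LRCs. Every LRC library lay above every non-LRC library, and within each group experiment 2 was highest and experiment 3 lowest. The fitted fold change was 2.62 in favour of LRCs (log2FC 1.39, SE 0.19, 95% interval 0.94 to 1.85, adjusted p = 0.0386, edgeR). Without experiment 1 the log2 fold change was 1.60 and *Pthlh* was no longer called (adjusted p = 0.0534, edgeR).

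The transcript was present in non-LRCs as well. Per length it stood at 33.7 ± 13.6 RPKM there (mean ± SD, *n*=3), above 91.0% of the genes tested, against 88.7 ± 40.7 RPKM and 96.8% in LRCs. The 9 markers of superficial articular and synovial cells, a set that includes the lubricin gene *Prg4*, summed to between 1680 and 3780 CPM in LRCs, against 195 to 346 CPM in non-LRCs. In all, 8 of the 9 had a fitted value above 0 and 5 were called higher in LRCs. In LRCs this sum was lowest in experiment 2, where *Pthlh* was highest. That library had the smallest total and was the extreme one for 58.1% of all genes tested, so the 2 levels cannot be related from it. The tdTomato gate, the removal of soft tissue and the serial collagenase digestion were meant by the study to favour growth plate over articular cells. From counts in sections, the paper reports that growth plate chondrocytes made up nearly all tdTomato+ cells released by digestion. By in situ hybridization it also reports *Prg4* mRNA in the resting zone, at a low level. The part of such cells in the *Pthlh* difference was not tested, and in these pooled cells more expressing cells and more RNA per cell cannot be told apart, for *Pthlh* and for every gene below.

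The 5 genes whose profile over the 6 libraries was closest to that of *Pthlh* were *Layn*, *B430212C06Rik*, *Pdlim4*, *Nfia* and *Gstm1*. Their root mean square difference from it, in log2 CPM centred on each gene's mean, was between 0.12 and 0.21, against a median of 1.05 over 13727 genes. *Pdlim4*, which encodes a PDZ and LIM domain protein, had means of 166 (LRCs) and 68.7 CPM (non-LRCs). *Nfia*, a nuclear factor I transcription factor gene, averaged 20.4 and 7.38 CPM. The likeness is a description over 6 libraries that share experiments.

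*Pth1r* encodes the PTH/PTHrP receptor and lies on chromosome 9 (110722085 to 110747145, minus strand). It had 153, 79.9 and 207 CPM in LRCs of experiments 1, 2 and 3, against 384, 305 and 630 CPM in non-LRCs. The highest LRC library was below the lowest non-LRC library, and experiment 3 was highest and experiment 2 lowest in both groups, an order opposite to that of *Pthlh*. *Pth1r* was 3.07-fold lower in LRCs (log2FC -1.62, SE 0.17, 95% interval -2.03 to -1.21, adjusted p = 0.0228, edgeR). It was called in 9 of 10 alternative settings, with each experiment left out in turn among them. The exception for *Pth1r* was the fit without the experiment block, in which neither *Pth1r* (-1.58, adjusted p = 0.280, edgeR) nor *Pthlh* (1.39, adjusted p = 0.348, edgeR) was called.

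The receptor transcript remained abundant in LRCs, at 50.2 ± 21.9 RPKM (mean ± SD, *n*=3) and above 94.4% of the genes tested. In non-LRCs it reached 150.2 ± 57.9 RPKM and 98.2%. *Myl3*, a muscle myosin light chain gene on the opposite strand whose exons overlap those of *Pth1r*, had between 0 and 131 counts per library, against 1672 to 39640 for *Pth1r*. Of the 6 hypertrophic markers, all had fitted values below 0 and 1, *Panx3*, was called lower in LRCs. Their sum was 607, 1840 and 1465 CPM in LRCs, against 705, 2096 and 2457 CPM in non-LRCs, lower in LRCs in all 3 experiments. The largest part of it was *Spp1*, with means of 1079 (LRCs) and 1066 CPM (non-LRCs). The level of the sum mainly follows that gene, but its differences between the groups do not. *Col10a1* averaged 26.0 and 97.25 CPM (log2FC -2.95, adjusted p = 0.101, edgeR). *Ihh* averaged 0.36 and 3.50 CPM (log2FC -5.35, adjusted p = 0.150, edgeR). The log2FC was -0.57 for *Mmp13* and -0.48 for *Ibsp*. Osteoblasts also express *Pth1r*, and the 9 osteoblast markers summed to between 1580 and 3580 CPM in LRCs, against 2220 to 3170 CPM in non-LRCs. The largest part of this sum was *Col1a2*, with means of 1903 (LRCs) and 1440 CPM (non-LRCs). Of the 9, 6 had fitted values below 0 and 3 above, with *Smpd3* called lower and *Col1a1* called higher in LRCs. The tdTomato gate, set by Col2a1-creER, was included by the study to keep out GFP+ cells that are not chondrocytes. The part of either cell type in the *Pth1r* difference was not tested.

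*Pak3*, *Zwilch*, *Serpinb5*, *Car12* and *C1qtnf3* had the profiles closest to that of *Pth1r*, with root mean square differences between 0.20 and 0.25 against a median of 1.11 over 13727 genes. *C1qtnf3*, which encodes the secreted protein cartducin of growth plate cartilage, had means of 456 (LRCs) and 1344 CPM (non-LRCs). *Car12*, a carbonic anhydrase gene, averaged 184 and 468 CPM. *Zwilch* and *Serpinb5* had no more than 5.28 CPM on average in either group.

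The ratio of ligand to receptor transcript was taken within each library, per length, so that it does not depend on the scaling between libraries. The log2 ratio of *Pthlh* to *Pth1r* was 0.43, 2.31 and -0.23 in LRCs of experiments 1, 2 and 3, against -1.87, -1.18 and -3.48 in non-LRCs. In LRCs the ligand transcript was thus the more abundant in 2 libraries and the receptor transcript in 1, whereas the receptor transcript was the more abundant in all 3 non-LRC libraries. The difference was 2.30, 3.48 and 3.25 within the experiments, with a mean of 3.01, which was larger than the SD of either group (1.32 in LRCs, 1.18 in non-LRCs). An exact sign-flip permutation test over 3 pairs, two-sided, gave p = 0.25, the smallest it allows.

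**Figure D2:**
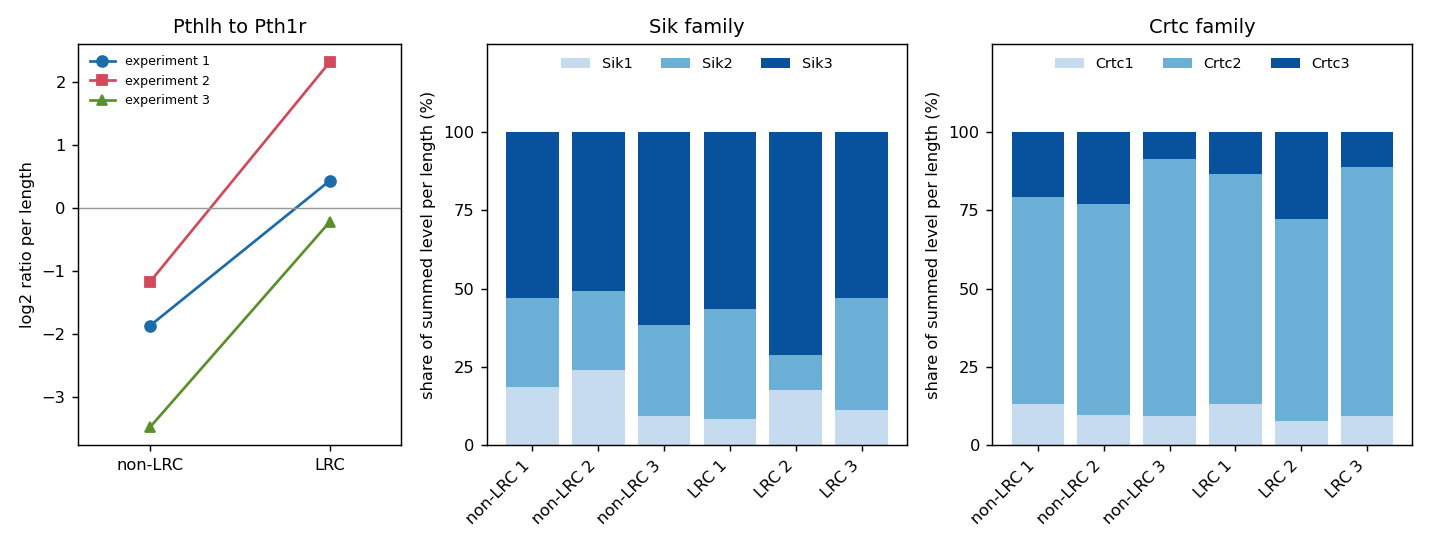
Left, log2 ratio of *Pthlh* to *Pth1r* per length in each library, with lines joining the libraries of an experiment. Middle and right, share (%) of each *Sik* and *Crtc* gene in the summed level of its family per length. The ratio is higher in LRCs by 2.30 to 3.48 in every experiment, while *Sik3* and *Crtc2* take the largest share in all 6 libraries.

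*Gnas*, on chromosome 2 (174284320 to 174346744, plus strand), was not called. It had 1091, 1568 and 1131 CPM in LRCs of experiments 1, 2 and 3, against 1162, 1340 and 925 CPM in non-LRCs. The groups overlapped, and the sign of the difference was not the same in the 3 experiments. The log2 fold change was 0.14 (SE 0.15, 95% interval -0.23 to 0.51, adjusted p = 0.669, edgeR), so that the interval held no change of 2-fold in either direction. *Gnas* is an imprinted locus with several first exons, and a count per gene does not separate Gsα from the other products. The antisense gene *Nespas*, whose exons overlap those of *Gnas*, had between 0 and 53 counts per library.

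The salt-inducible kinases are the step between protein kinase A and the CRTC coactivators, and none of the 3 genes was called. *Sik1*, on chromosome 17 (31844250 to 31855804, minus strand), is known as a kinase gene that is itself induced by cAMP. It had 2.89, 8.41 and 4.003 CPM in LRCs of experiments 1, 2 and 3, against 6.70, 5.34 and 2.43 CPM in non-LRCs. Its log2 difference was -1.20 in experiment 1 but 0.65 and 0.71 in experiments 2 and 3 (log2FC 0.07, SE 0.58, adjusted p = 0.962, edgeR). The 95% interval, -1.35 to 1.48, left changes of more than 2-fold in either direction possible, and the sign of the fitted value reversed when experiment 2 (-0.27) or experiment 3 (-0.26) was left out and in a limma-voom fit (-0.39).

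*Sik2* lies on chromosome 9 (50892801 to 51009073, minus strand), and its exons overlap those of *Ppp2r1b* on the other strand. Whether counting used strand is not given in the sources used here, so reads of such overlaps cannot be assigned with certainty. It had 23.0, 9.89 and 23.9 CPM in LRCs of experiments 1, 2 and 3, against 18.8, 10.5 and 14.3 CPM in non-LRCs. Experiment 2 was lowest in both groups and was the one experiment in which *Sik2* was not higher in LRCs (log2FC 0.32, SE 0.27, 95% interval -0.34 to 0.97, adjusted p = 0.583, edgeR). *Ppp2r1b*, which encodes a scaffold subunit of protein phosphatase 2A, had 35.9 ± 15.5 CPM in LRCs, against 23.5 ± 7.96 CPM in non-LRCs (mean ± SD, *n*=3).

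*Sik3*, on chromosome 9 (46012820 to 46224194, plus strand), is the salt-inducible kinase best known from chondrocytes, where it is needed for hypertrophy. It had 36.0, 62.1 and 34.8 CPM in LRCs of experiments 1, 2 and 3, against 34.7, 20.6 and 29.3 CPM in non-LRCs. The groups did not overlap, but the lowest LRC library and the highest non-LRC library were almost level. The log2 difference was 0.05, 1.59 and 0.24 by experiment (log2FC 0.62, SE 0.34, 95% interval -0.20 to 1.44, adjusted p = 0.389, edgeR). Without experiment 2 the log2 fold change was 0.15.

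Per length *Sik3* was the most abundant kinase of the family in all 6 libraries. It took between 50.7% and 71.4% of the summed level of the 3 genes, *Sik2* between 11.1% and 35.7% and *Sik1* between 8.24% and 23.9%. The share of *Sik3* was 60.3 ± 9.69% in LRCs and 55.1 ± 5.65% in non-LRCs (mean ± SD, *n*=3), higher in LRCs in experiments 1 and 2 and lower in experiment 3. None of the 3 shares differed between the groups by more than the larger SD, which also holds the spread between experiments. Within the experiments, the differences took both signs for each of the 3 shares. For *Sik1* they were -10.4, -6.37 and 1.84 percentage points (p = 0.5, exact sign-flip test over 3 pairs).

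The CRTC coactivators bind CREB and are held in the cytoplasm when phosphorylated by salt-inducible kinases. The 3 genes had close fitted values, between 0.55 and 0.65 on the log2 scale, and none was called. *Crtc2* lies on chromosome 3 (90254163 to 90264125, plus strand). It had 40.02, 34.99 and 40.08 CPM in LRCs of experiments 1, 2 and 3, against 26.4, 20.3 and 27.8 CPM in non-LRCs. The groups did not overlap, and the log2 differences within the experiments were 0.60, 0.79 and 0.52 (log2FC 0.64, SE 0.19, 95% interval 0.18 to 1.09, adjusted p = 0.154, edgeR). The unadjusted p was 0.0138, a level below 0.05 that 8.89% of all genes tested reached in the same direction. With DESeq2 and the block its adjusted p was 0.0345, at a fold change below 2.

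*Crtc1*, on chromosome 8 (70382355 to 70439579, minus strand), had 19.7, 11.7 and 13.01 CPM in LRCs of experiments 1, 2 and 3, against 14.1, 7.85 and 8.59 CPM in non-LRCs. The groups overlapped, yet the log2 differences within the experiments were close to each other at 0.48, 0.57 and 0.60 (log2FC 0.55, SE 0.26, 95% interval -0.09 to 1.19, adjusted p = 0.334, edgeR). *Crtc3*, on chromosome 7 (80586627 to 80688877, minus strand), had 17.7, 36.4 and 13.8 CPM in LRCs of experiments 1, 2 and 3, against 19.8, 16.6 and 6.98 CPM in non-LRCs. It was not higher in LRCs in experiment 1 (difference -0.16), but was in experiments 2 and 3 (1.13 and 0.98). Its log2 fold change was 0.65 (SE 0.33, 95% interval -0.15 to 1.45, adjusted p = 0.355, edgeR).

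*Crtc2* made up between 64.3% and 82.2% of the summed level of the 3 coactivator genes per length, *Crtc3* between 8.56% and 27.8% and *Crtc1* between 7.85% and 13.2%. The *Crtc2* share was 72.3 ± 7.5% in LRCs and 72.0 ± 8.83% in non-LRCs (mean ± SD, *n*=3). The mean shares of *Crtc1* and *Crtc3* differed between the groups by -0.46 and 0.16 percentage points. The composition of the family therefore differed by less than the spread between libraries. Within the experiments, the differences took both signs for each *Crtc* share.

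*Zfp521*, on chromosome 18, had 47.4, 8.27 and 44.8 CPM in LRCs of experiments 1, 2 and 3, against 34.3, 16.5 and 39.7 CPM in non-LRCs. Both libraries of experiment 2 were below the other 4, and the LRC library of that experiment was the lowest. Its log2 difference was -0.99 in experiment 2 and 0.47 and 0.17 in experiments 1 and 3. The log2 fold change was -0.10 (SE 0.32, 95% interval -0.88 to 0.68, adjusted p = 0.897, edgeR) and turned to 0.32 without experiment 2, still not called.

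**Figure D3:**
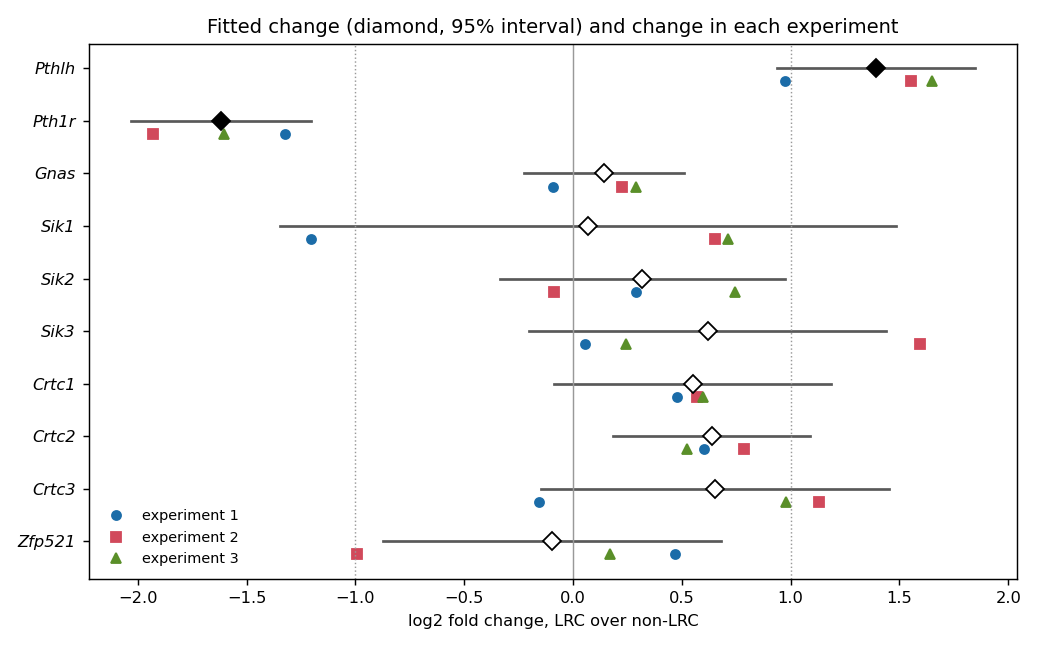
Fitted log2 fold change of each gene, LRC over non-LRC (diamond, filled where called), with its 95% interval (line) and the difference in log2 CPM within each experiment (coloured symbols). Dotted lines mark a 2-fold change. The intervals of *Pthlh* and *Pth1r* lie on opposite sides of 0, that of *Crtc2* lies just above 0, and those of the other 7 genes include 0.

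Over the 10 members, 4 were higher in LRCs in all 3 experiments (*Pthlh*, *Sik3*, *Crtc1* and *Crtc2*) and 1 was lower in all 3 (*Pth1r*). Of all genes tested, 20.4% were higher and 26.1% lower in LRCs in all 3 experiments. The groups did not overlap for 4 members, higher in LRCs for *Pthlh*, *Sik3* and *Crtc2* and lower for *Pth1r*, against 8.41% and 10.3% of all genes tested in these directions. At an unadjusted p below 0.05, 2 members were higher and 1 was lower, against 8.89% and 9.53% of all genes. 

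The LRC library of experiment 2 held the highest or lowest of the 6 values for 8 of the 10 members. It was highest for *Pthlh*, *Gnas*, *Sik1*, *Sik3* and *Crtc3* and lowest for *Pth1r*, *Sik2* and *Zfp521*. It was the extreme library for 58.1% of all genes tested, against 17.4% to 39.7% for each other library. Without experiment 2, the log2 fold changes of *Pthlh* (1.31) and *Pth1r* (-1.46) kept their direction and their calls, and no other member was called.

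In order of level per length, the members of LRCs were *Gnas* (113 ± 23.6 RPKM, mean ± SD, *n*=3), *Pthlh*, *Pth1r*, *Crtc2* (9.37 ± 0.71 RPKM), *Zfp521* (4.76 ± 3.11 RPKM), *Sik3* (4.76 ± 1.66 RPKM), *Crtc3* (2.30 ± 1.22 RPKM), *Sik2* (1.99 ± 0.82 RPKM), *Crtc1* (1.32 ± 0.38 RPKM) and *Sik1* (0.99 ± 0.57 RPKM). In non-LRCs *Pth1r* came first, followed by *Gnas* (102 ± 18.6 RPKM) and *Pthlh*, and *Crtc2* came next again (6.07 ± 0.98 RPKM). The order has 3 ligand, receptor and G protein genes above the 7 genes that act further on, and in both groups the ranges of the third gene and of *Crtc2* were apart. Within LRCs the ranges of *Gnas* and *Pthlh*, of *Pthlh* and *Pth1r*, of *Zfp521* and *Sik3*, and of each neighbouring pair from *Crtc3* to *Sik1* overlapped. These are ranges across libraries. Within each LRC library *Gnas* stood above *Pthlh* (97.6 against 70.3, 140 against 135 and 101 against 60.5 RPKM by experiment). The order of the other neighbours named was not the same in every LRC library. The merged exons of *Gnas* (11186 bases) include first exons of its other products, and with the longest transcript (3947 bases) its level in LRCs was 320 ± 67.0 RPKM, first in both groups.

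The other genes of the pathway were grouped in 10 lists of 111 genes, of which 99 were tested. The test called 3 of the 99, *Plcb1* and *Nr4a1* higher and *Mef2c* lower in LRCs, against 1.21% of all genes. The paper had reported *Mef2c* as higher in non-LRCs of these same libraries, and the lists were chosen with earlier results known. The count of list genes called is therefore no independent finding about the pathway. A total of 51 of the 99 had fitted values above 0 and 48 below, against 6038 and 7690 of all genes tested. The median log2 fold change of the 99 was 0.03, against -0.10 over all genes tested.

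Among ligands and receptor partners, *Pth* and *Pth2* had 0 counts in all libraries and *Pth2r* had 163 counts in total, so that *Pthlh* was the 1 of these 3 ligand genes with counts. None of the 8 genes tested was called. *Ramp2*, which encodes a receptor activity-modifying protein, had 2.62, 13.96 and 2.54 CPM in LRCs, against 1.404, 1.68 and 0.87 CPM in non-LRCs (log2FC 1.82, SE 0.65, adjusted p = 0.220, edgeR). The LRC library of experiment 2 stood above the others, and without that experiment the log2FC was 1.22. *Ramp1* was at 1.73 and 6.25 CPM (log2FC -1.81, SE 0.53, adjusted p = 0.155, edgeR). *Arrb1*, a β-arrestin gene, had a log2FC of -0.51 (adjusted p = 0.425, edgeR).

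The receptor also couples to Gq and G11, which act on phospholipase C β. *Plcb1* had means of 133 (LRCs) and 59.8 CPM (non-LRCs) with log2 differences of 1.09, 1.06 and 1.35 in the 3 experiments (log2FC 1.17, SE 0.15, adjusted p = 0.0359, edgeR). Without experiment 1 it was not called (1.20, adjusted p = 0.136). It was the 1 gene called of the 16 tested in its list. *Gna14*, the gene of another Gq-class α subunit, averaged 9.08 and 3.75 CPM (log2FC 1.28, adjusted p = 0.176, edgeR), and *Gnai3* (-0.42) and the chaperone gene *Ric8a* (-0.29) were not called.

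None of the 8 adenylyl cyclase genes tested, which encode the enzymes that make cAMP, was called. Of these, 7 had fitted values above 0, against 6038 of all 13728 genes tested, and the median of the 8 was 0.74. Higher in LRCs in all 3 experiments were 3 of the 8, against 20.4% of all genes tested. *Adcy1* (0.85, SE 2.07) and *Adcy5* (0.99, SE 2.23) had differences of both signs across the experiments. The cyclase gene with the highest level, *Adcy2*, had means of 72.0 (LRCs) and 62.8 CPM (non-LRCs) and a log2FC of 0.11. *Adcy3* had means of 28.8 (LRCs) and 12.9 CPM (non-LRCs) (log2FC 1.20, SE 0.28, adjusted p = 0.103, edgeR), *Adcy7* had a log2FC of 1.02 (adjusted p = 0.210, edgeR) and *Adcy6* one of 0.61.

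Of the 8 protein kinase A genes tested, the 2 regulatory subunits of type II had fitted values of opposite sign, and neither was called. *Prkar2b* had means of 25.8 (LRCs) and 53.4 CPM (non-LRCs) (log2FC -1.07, SE 0.18, adjusted p = 0.0612, edgeR). *Prkar2a* averaged 50.04 and 34.98 CPM (log2FC 0.51, SE 0.17, adjusted p = 0.188, edgeR). *Prkar1a*, a type I subunit gene, averaged 492 and 399 CPM (log2FC 0.31, adjusted p = 0.297, edgeR).

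The 16 phosphodiesterase genes, which encode enzymes that degrade cAMP, had 7 fitted values above 0 and 9 below, and none was called. *Pde10a* had means of 24.0 (LRCs) and 8.57 CPM (non-LRCs) (log2FC 1.42, SE 0.26, adjusted p = 0.0669, edgeR). *Pde7b* was at 5.19 and 1.44 CPM (log2FC 1.93, adjusted p = 0.176, edgeR) and *Pde3b* at 56.3 and 41.4 CPM (log2FC 0.45, adjusted p = 0.215, edgeR).

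**Figure D4:**
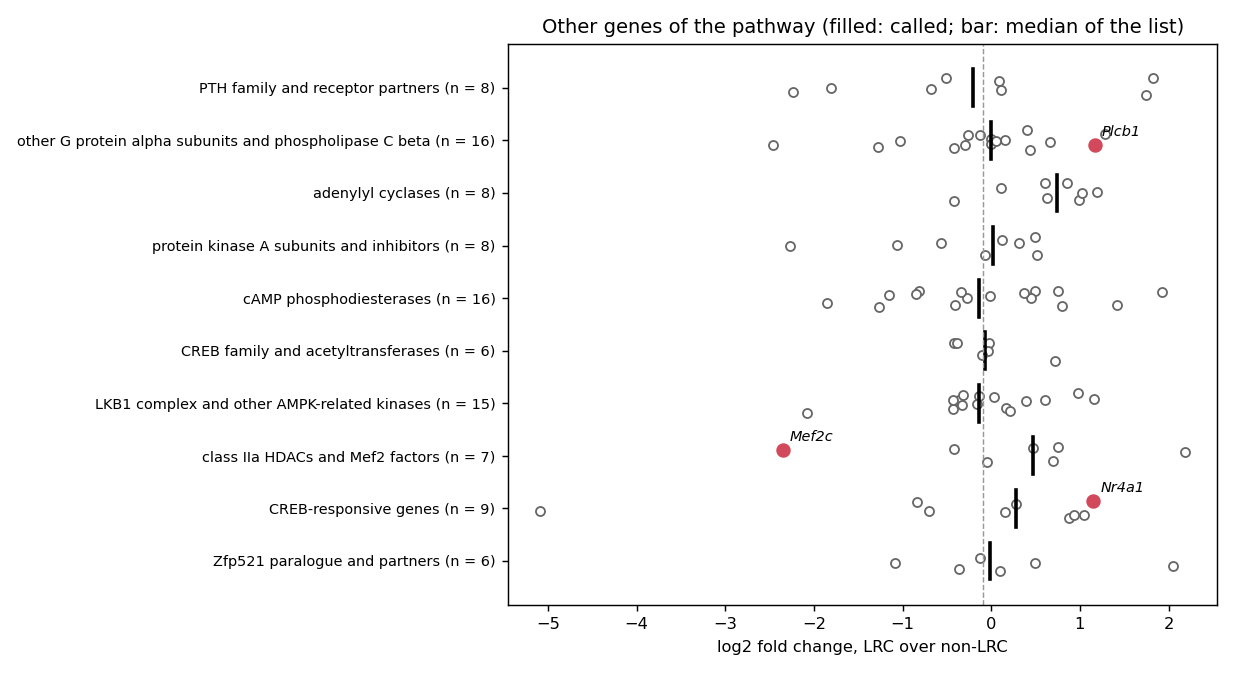
Log2 fold change, LRC over non-LRC, of each tested gene in the 10 pathway lists (circles, filled where called), with the median of each list (bar) and of all genes tested (dashed line, -0.10). The filled circles are *Plcb1* and *Nr4a1* above 0 and *Mef2c* below 0, and most lists spread to both sides of 0.

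None of the 6 genes of CREB family members and the acetyltransferases they recruit was called. *Ep300* had means of 25.4 (LRCs) and 14.9 CPM (non-LRCs) (log2FC 0.72, adjusted p = 0.188, edgeR), *Crem* had a log2FC of -0.39 and *Creb1* one of -0.42. The value of *Creb1* rested on experiment 2, where the difference was -1.98, and was 0.28 without it. Of the 9 CREB-responsive genes tested, *Nr4a1*, which encodes an orphan nuclear receptor, was called. It had means of 78.6 (LRCs) and 34.8 CPM (non-LRCs) with log2 differences of 0.85, 1.24 and 1.35 in the 3 experiments (log2FC 1.15, SE 0.18, adjusted p = 0.0489, edgeR). It was not called without experiment 1 (adjusted p = 0.124) or without experiment 3 (adjusted p = 0.133). *Nr4a2* averaged 61.3 and 32.5 CPM (log2FC 0.88, adjusted p = 0.0942, edgeR) and *Fos* 358 and 191 CPM (log2FC 1.04, adjusted p = 0.175, edgeR).

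Counts of *Bdnf* were 0, 0 and 6 for LRCs and 69, 42 and 20 for non-LRCs, by experiment. The limit that 0 counts set was 0.0257 CPM for experiment 1 and 0.143 CPM for experiment 2 (3 counts, counting error only), and *Bdnf* was not called (adjusted p = 0.313, edgeR). *Nr4a1* and *Fos* are also induced while tissue is dissociated. A list of 10 other dissociation and heat shock genes summed to 2304, 2093 and 3375 CPM in LRCs, against 1885, 1326 and 2835 CPM in non-LRCs. The sum was thus higher in LRCs in all 3 experiments. In that list 8 fitted values were above 0, and 1 gene, *Hspa1a*, was called higher in LRCs. Its part in the *Nr4a1* value was not tested.

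Mef2 factors drive chondrocyte hypertrophy and are restrained by class IIa histone deacetylases, which are substrates of the salt-inducible kinases. *Mef2c* had 10.7 ± 8.59 CPM in LRCs, against 51.3 ± 34.3 CPM in non-LRCs (mean ± SD, *n*=3) with log2 differences of -2.25, -2.68 and -2.14 in the 3 experiments. It was called lower (log2FC -2.35, SE 0.21, adjusted p = 0.0176, edgeR) and kept the call when each experiment was left out in turn. The hypertrophic marker *Panx3* had means of 25.2 (LRCs) and 283 CPM (non-LRCs), and its part in the *Mef2c* value was not tested.

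The other 6 genes of that list were not called. *Hdac4*, which encodes the class IIa deacetylase best known from growth plate chondrocytes, had 70.6 ± 1.75 CPM in LRCs, against 41.8 ± 2.33 CPM in non-LRCs (log2FC 0.76, SE 0.15, adjusted p = 0.0808, edgeR), with no overlap of the groups. *Mef2a* averaged 190 and 108 CPM (log2FC 0.69, adjusted p = 0.155, edgeR), and *Hdac5* had a log2FC of -0.43 (adjusted p = 0.353, edgeR).

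The kinase LKB1 activates the salt-inducible kinases and the other AMPK-related kinases. None of the 15 genes tested from this list was called. *Mark1*, a microtubule affinity-regulating kinase gene, had means of 23.2 (LRCs) and 11.9 CPM (non-LRCs) (log2FC 0.98, SE 0.26, adjusted p = 0.12, edgeR). *Strada*, which encodes a partner of LKB1, averaged 9.37 and 4.46 CPM (log2FC 1.16, adjusted p = 0.243, edgeR), and *Prkaa1*, an AMPK catalytic subunit gene, had a log2FC of -0.43 (adjusted p = 0.287, edgeR).

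Of the 6 tested genes of partners and the paralogue of *Zfp521*, none was called. *Runx2*, the transcription factor gene of hypertrophic chondrocytes and osteoblasts, had means of 95.3 (LRCs) and 68.4 CPM (non-LRCs) (log2FC 0.50, SE 0.20, adjusted p = 0.268, edgeR). *Ebf1*, a transcription factor gene, had 163, 64 and 60 counts in LRCs, against 119, 0 and 37 counts in non-LRCs (adjusted p = 0.606, edgeR). Its log2FC of 2.05 (SE 1.83) depended on the 0 counts of experiment 2 and was 0.58 without that experiment. *Hdac3* had a log2FC of -0.13 (adjusted p = 0.767, edgeR).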

How the data were processed

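RNA of LRC and non-LRC pools from 3 experiments was amplified with a SMARTer kit, made into libraries with Nextera XT and sequenced by the study. Per the labels, the submitters' processing notes name TopHat2 (2.0.13), Bowtie2 (2.2.1), HTSeq and DESeq2, with mouse build mm10. The gene annotation and the strand setting of the counting are not given in the sources used here. The authors deposited raw counts per gene for 6 libraries, the same counts divided by DESeq2 size factors (signal), and regularized log2 values. The deposited counts were used for all tests. The deposited signal values were checked to be the counts divided by 1 factor per library, and the deposited log2 values were compared with the counts for the members only.

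Genes were filtered with filterByExpr (minimum count 10, minimum total 15), scaled by TMM and tested with edgeR (4.0.16, R 4.3.3) by the quasi-likelihood test, with the experiment as a block as in the study's paired model. P-values were adjusted by Benjamini-Hochberg over the 13728 genes tested. The experiment pairs were checked over 11129 genes with at least 10 counts in every library. Deviations from the group mean correlated at 0.43, 0.48 and 0.46 between libraries of the same experiment and between -0.43 and 0.097 across experiments. DESeq2 (1.42.0), limma-voom (3.58.1) and changes of scaling, filter, block and replicates were the alternatives. Scripts were tested on simulated data. Lengths come from GENCODE vM21.

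The members and the lists were chosen with earlier results of these data known. From each pathway list the text names every called gene and otherwise up to 3 genes with the smallest unadjusted p. *Adcy1*, *Adcy2* and *Adcy5* are named besides. From each marker list it gives the summed level, the called genes and some markers that were not called. The 5 genes most like *Pthlh* and most like *Pth1r* are also named. Of 189 symbols listed, 185 matched directly, 3 by an older symbol and 1, *Hbb-bt*, not at all.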

Additional observations from a re-analysis of the deposited data

How the results depend on the processing

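Across 10 alternative settings, *Gnas*, *Sik2*, *Sik3*, *Crtc1*, *Crtc2* and *Crtc3* kept the sign of their log2 fold change and were never called. *Crtc2* passed an adjusted p of 0.05 with DESeq2 alone (0.0345), below a 2-fold change. Without the replicate block, the log2 fold changes were 1.39 for *Pthlh* (adjusted p = 0.348), -1.58 for *Pth1r* (adjusted p = 0.280) and 0.15 for *Zfp521*, 1 gene was called of all tested (1289 at an unadjusted p below 0.05, edgeR), and 0 members and 0 pathway genes in either direction were called, so *Plcb1* (1.16), *Mef2c* (-2.26) and *Nr4a1* (1.18) lost their calls. The main edgeR fit called 166 genes. The number was 799 with DESeq2, 621 with limma-voom and 434 with at least 10 counts required in every library. Of these, 164, 166 and 164 were among the 166. The paper, which used DESeq2, also reports 799 genes. Pathway genes called higher and lower numbered 8 and 4 with DESeq2, 6 and 2 with limma-voom, and 5 and 3 with the stricter filter. With limma-voom the sign turned for *Sik1* (-0.39), *Zfp521* (0.21), *Adcy6* (-0.22) and *Creb1* (0.082). The causes of these changes were not tested.

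Leaving out each experiment in turn gave 35 (without experiment 1) to 555 (without experiment 2) genes called, with 223 without experiment 3, 1 to 2 members called, and 0 to 7 pathway genes called higher and 1 to 2 called lower. *Pthlh* ranged from 1.28 to 1.60 and lost its call without experiment 1 (adjusted p = 0.0534). *Sik1* ranged from -0.27 to 0.68 and *Zfp521* from -0.41 to 0.32. *Adcy6* ranged from -0.16 to 1.51, *Creb1* from -0.85 to 0.28 and *Hdac3* from -0.34 to 0.051, each with its sign turned without experiment 2. *Ramp2* ranged from 1.22 to 2.30 and *Ebf1* from 0.58 to 4.02, both lowest without experiment 2. Low counts limit *Ebf1* (standard error 1.83) and *Bdnf* (2.30).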
